A study of Mus musculus with 8 samples.

Results

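The comparison set cell lines that carry a tagged histone H3.1 transgene against cell lines that carry a tagged histone H3.3 transgene. All 8 libraries of the series entered it, 2 from H3.1 lines and 6 from H3.3 lines, and each library was placed by the histone named in its label. The H3.1 lines were H3.1 K36M, in which lysine 36 is replaced by methionine, and H3.1 K36R, with arginine there. The H3.3 lines carried K36M, K36I (isoleucine), K36L (leucine), K36A (alanine) or K36R, or the wild-type (WT) H3.3 sequence. The host was the mouse cell line C3H10T1/2, a multipotent mesenchymal line derived from C3H embryos, grown in DMEM with fetal bovine serum and used over the same range of passages. Every transgene was stably expressed with a FLAG-HA tag, and all lines keep their own H3 genes. The labels name neither vector nor promoter, nor whether a line is 1 clone or a pool. Each transgene had 1 line and 1 library, and no line with wild-type H3.1 was analysed here. The groups therefore pool lines with different substitutions, n counts lines, and a p-value measures the spread between these lines, which may in part be technical. The identity of the histone and the derivation of the 2 H3.1 lines cannot be told apart.

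Histone H3 exists as variants that differ at a few residues. H3.1 is made mainly in S phase and is placed on newly replicated DNA by the chaperone CAF-1, while H3.3 is made throughout the cell cycle and is placed by HIRA at active genes and by DAXX with ATRX at repeats and telomeres. Lysine 36 is methylated by SETD2, NSD-family and other enzymes. Methionine or isoleucine at that position blocks these enzymes in trans.

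Messenger abundance was measured per gene by RNA-seq of total RNA, and the deposited values are log2 values made by DESeq2's variance-stabilising transformation. Whole reads recovered from them gave 45448249 reads for the H3.1 K36M line and 53199065 for the H3.1 K36R line, against 61139941 to 68020958 in the H3.3 lines, so that the H3.1 libraries were the shallowest of the 8. At these depths 3 reads are 4.41e-06% to 6.6e-06% of a library. Rn45s, a ribosomal RNA precursor, took 1.70% and 2.02% of reads in the H3.1 libraries, against 5.24% for H3.3 K36A, 3.11% for H3.3 K36L and 1.66% to 2.19% for the other 4 H3.3 libraries. All 12 listed markers of the mesenchymal line, such as Col1a1 and Vim, passed the filter and none was called between the histones. Of the 13 leukocyte markers in the table, 3 passed the filter, and 1 of them, Cd53, was called higher with overlapping groups (levels given below). Cd3e was at 0 reads in every library and Ptprc reached at most 7.89 normalised reads. The summed level of the list was 9463 and 436 normalised reads in the H3.1 lines, against 249 to 4884 in the H3.3 lines. Cd53 made up most of that sum in H3.1 K36M. Of the endothelial and epithelial markers 3 each passed the filter and none was called, and of 3 neural markers that passed, Tubb3 was called lower.

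The question was which genes differ between H3.1 and H3.3 lines once the inhibitory substitutions, K36M and K36I, are set against the others in the same fit. Differences are H3.1 minus H3.3 on the deposited log2 scale, which understates the change of genes with few reads, and levels are recovered reads scaled by size factors (normalised reads). Where 2 levels are given for the H3.1 lines, that of H3.1 K36M is first. Of 31276 genes, 14215 passed the filter, a mean at least 1 above the lowest deposited value, which lies near 31 normalised reads. At an adjusted p under 0.05 (limma, Benjamini-Hochberg), 803 genes (5.65%) were higher and 764 (5.37%) were lower in the H3.1 lines, together 11.0% of the genes tested. The genes that were higher moved further. Among them the median difference was 0.68 and 211 reached 1, whereas the genes that were lower had a median of -0.46 and 78 reached -1. Both H3.1 libraries lay above all 6 H3.3 libraries in 10.4% of the genes tested and below all 6 in 12.2%. Among called genes this held for 628 of the 803 that were higher and 658 of the 764 that were lower. The filter also keeps genes with reads in the H3.1 lines alone, so that counts over a list describe the genes that passed. The calls depended on single lines. Of the 1567 called genes, 165 were also called without H3.1 K36M, 648 without H3.1 K36R, 557 without H3.3 K36I, 729 without H3.3 K36M, 773 without H3.3 WT, 818 without H3.3 K36L, 974 without H3.3 K36A, 1450 without H3.3 K36R and 373 without both H3.3 K36A and H3.3 K36L. A fit with no term for the inhibitory substitutions called 432 genes, one with library weights 414, and one restricted to the K36M and K36R lines 12. The H3.1 lines also had the lowest depth, and with all libraries thinned to the smallest 1504 genes were called.

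Among called genes whose groups did not overlap, the 15 with the largest difference in either direction are described first. Their lack of overlap was set by this choice. Those with the largest positive differences include genes of complement, acute-phase proteins and neutrophil chemokines. C3 (chromosome 17, 57203967 to 57228136, GRCm38.p6), the central component of complement, had 16230.3 normalised reads in the H3.1 K36M line and 25406 in the H3.1 K36R line, against 18.7 to 127 in the 6 H3.3 lines (median 58.9). The highest H3.3 library thus stayed far below either H3.1 library, and the difference was 7.09 (SE 0.20, adjusted p = 5.99e-06). Serpina3g (chromosome 12, 104236147 to 104241939), a serine protease inhibitor of the family that includes the acute-phase antichymotrypsins, had 8534 normalised reads in the H3.1 K36M line and 3363 in the H3.1 K36R line, against 19.16 to 91.9 in the 6 H3.3 lines (median 52.5). Its difference was 5.08 (SE 0.21, adjusted p = 2.38e-05). Cxcl5 (chromosome 5, 90759298 to 90761625), a chemokine that attracts neutrophils, had 29565 normalised reads in the H3.1 K36M line and 10180.1 in the H3.1 K36R line, against 115 to 1059 in the 6 H3.3 lines (median 284), a difference of 5.07 (SE 0.30, adjusted p = 0.000359). H3.3 K36M was the highest H3.3 line for this gene and still lay below both H3.1 lines. Lcn2 (chromosome 2, 32384637 to 32387739), which binds bacterial siderophores, had 1508 normalised reads in the H3.1 K36M line and 2251 in the H3.1 K36R line, against 1.95 to 93.5 in the 6 H3.3 lines (median 18.6), a difference of 4.12 (SE 0.32, adjusted p = 0.00101). Steap4 (chromosome 5, 7960472 to 7982213), a metalloreductase, had 911 normalised reads in the H3.1 K36M line and 1047 in the H3.1 K36R line, against 0 to 5.1 in the 6 H3.3 lines (median 0). Most H3.3 libraries held no read of it, and its difference of 4.03 (SE 0.15, adjusted p = 1.62e-05) is set by the lowest value of the scale. All 5 kept their call when any 1 library was left out.

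The promoters of these genes were searched for the letters of known sites, since several are textbook targets of NF-kB and STAT factors. RefSeq windows of 250 bases upstream of the start were at hand for 9570 of the genes tested (67.3%) and for 10 of these 15 genes with positive differences. The NF-kB letters, GGG and TTCC with any 3 bases between them, read on both strands and allowing overlapping matches, occurred in 5 of these 10 windows, against 6.02% of all windows of that length, and in 1 of 10 windows of the 15 genes with negative differences. The matches in Tmem176b and Tmem176a are 1 site of a shared promoter, read from either strand. The STAT letters TTCNNNGAA occurred in 3 of 10 windows of either set, against 7.27% of all. The stretches around a match in Cxcl1, Serpina3g and Steap4 are shown as examples, and these genes kept their call in every fit with a library left out. Capitals mark the match on the strand of the gene (GRCm38.p6, RefSeq), and a match describes letters, not binding. In Cxcl1 3 matches were found, some of them overlapping.
Cxcl1 (NF-kB letters, chr5:90891149-90891208, plus strand): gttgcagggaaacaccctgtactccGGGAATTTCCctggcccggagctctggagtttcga
Serpina3g (NF-kB letters, chr12:104236037-104236096, plus strand): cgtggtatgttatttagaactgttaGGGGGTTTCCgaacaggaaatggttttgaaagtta
Steap4 (NF-kB letters, chr5:7960222-7960280, plus strand): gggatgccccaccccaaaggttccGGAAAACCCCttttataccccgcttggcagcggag

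Other genes among the 15 with positive differences came from the same families. Cxcl1 (chromosome 5, 90891245 to 90893121), a second neutrophil chemokine, had 6136 normalised reads in the H3.1 K36M line and 7290.4 in the H3.1 K36R line, against 395 to 911 in the 6 H3.3 lines (median 740.5), a difference of 3.20 (SE 0.29, adjusted p = 0.0017). The H3.1 lines were close to each other. Serpina3f had 1289 and 1256 normalised reads in the H3.1 lines, against 0 to 7.6 (median 2.63) in the H3.3 lines, a difference of 4.23 (SE 0.15, adjusted p = 1.62e-05). Serpina3h had 1322 and 1155 normalised reads in the H3.1 lines, against 8.59 to 31.6 (median 22.2) in the H3.3 lines, a difference of 3.65 (SE 0.14, adjusted p = 1.62e-05). The Serpina3 genes are near-identical neighbours on chromosome 12, and it is not stated how reads that match several copies were counted. Ccl2, a monocyte chemokine, had 30706 normalised reads in the H3.1 K36M line and 6184 in the H3.1 K36R line, against 475 to 6102 in the 6 H3.3 lines (median 1221), so that H3.1 K36R barely exceeded the highest H3.3 line. Its difference of 3.01 (SE 0.70, adjusted p = 0.0353) was called in only 3 of the 8 fits with a library left out and was lost without H3.1 K36M (adjusted p = 0.226), H3.1 K36R (adjusted p = 0.0811), H3.3 K36L (adjusted p = 0.0582), H3.3 K36A (adjusted p = 0.0555) or H3.3 WT (adjusted p = 0.0586). Its neighbour Ccl7 had a difference of 2.84 (SE 0.51, adjusted p = 0.0168) and was lost without H3.1 K36M (adjusted p = 0.142).

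Genes outside inflammation were also among the 15. Ntn1, the axon guidance cue netrin, had 6620.1 normalised reads in the H3.1 K36M line and 7371 in the H3.1 K36R line, against 358 to 1223 in the 6 H3.3 lines (median 484), a difference of 3.41 (SE 0.35, adjusted p = 0.00261). It kept its call in every fit with a library left out. Slc15a2, a peptide transporter, had 1176 and 1443 normalised reads in the H3.1 lines, against 3.83 to 149.8 (median 27.7) in the H3.3 lines, a difference of 3.45 (SE 0.34, adjusted p = 0.00233). Postn, the matricellular protein periostin, had 35468 and 31525 normalised reads in the H3.1 lines, against 1055 to 7430.4 (median 2461) in the H3.3 lines, and its difference of 3.62 (SE 0.60, adjusted p = 0.0131) was lost without H3.1 K36M (adjusted p = 0.111) or H3.1 K36R (adjusted p = 0.0572). By the rule that chose these genes, the H3.1 lines lay above the H3.3 lines for each of them. Slc15a2 kept its call when any library was left out. Tmem176b and Tmem176a, a pair of transmembrane genes whose exons overlap on opposite strands, had differences of 4.87 (SE 0.29, adjusted p = 0.000359) and 4.70 (SE 0.32, adjusted p = 0.000582). Since it is not stated whether strand was used in counting, their reads cannot be told apart. Across the 15 genes in either direction, 30 in all, 16 kept their call in all 8 fits with a library left out.

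**Figure D1:**
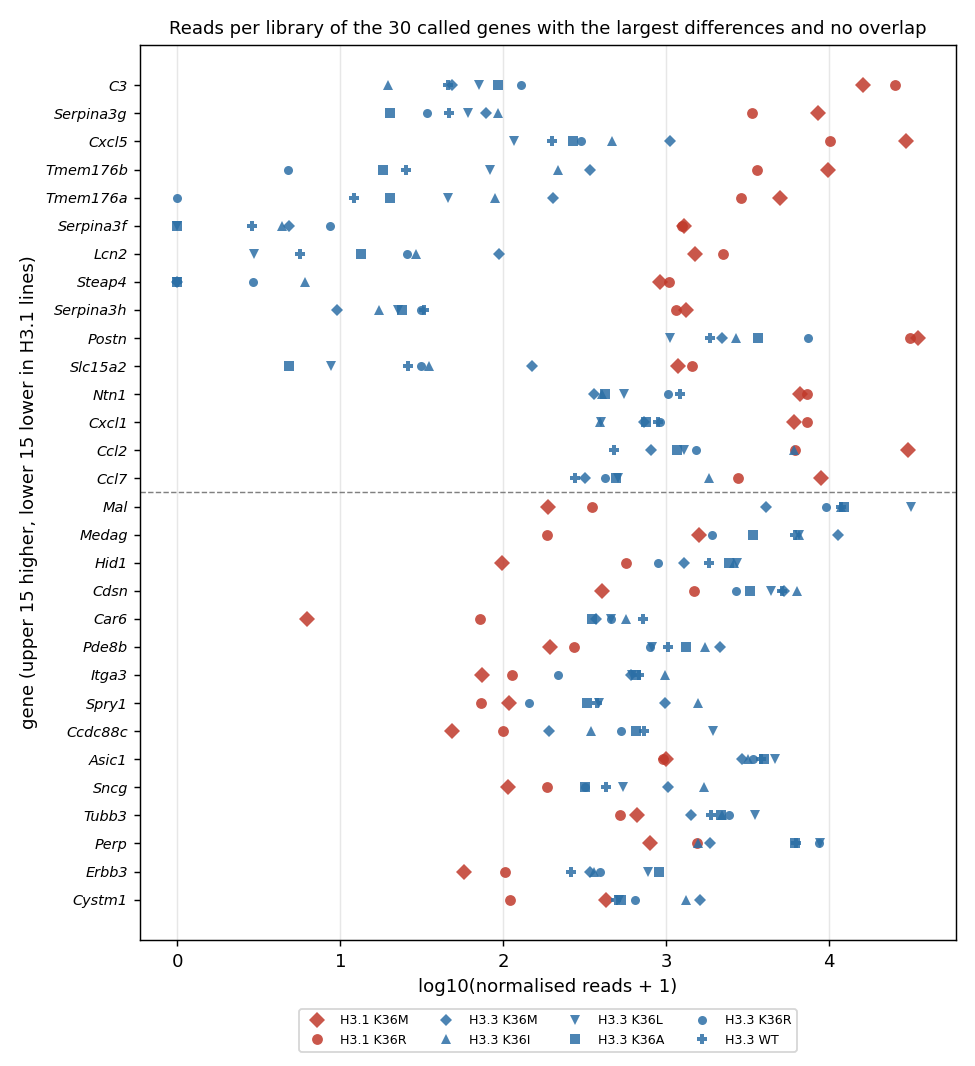
Normalised reads (x axis, log10 of reads plus 1) of the 15 genes with the largest positive and the 15 with the largest negative difference among called genes whose groups did not overlap, 1 point per library, the 2 H3.1 and 6 H3.3 lines told apart by colour and shape. By the rule that chose them, both H3.1 points lie on one side of all 6 H3.3 points for each gene.

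Many genes of the inflammatory lists were called higher in the H3.1 lines. No gene of the NF-kB, chemokine, cytokine, complement or acute-phase lists was called lower. Differences below 0, none of them called, were found in 2 of 20 NF-kB, 1 of 9 chemokine, 2 of 22 cytokine and 4 of 12 complement genes. Over all genes tested, 5.65% were called higher and 5.37% lower. Of 20 NF-kB target and feedback genes tested, 13 were higher, with a median difference of 0.80, against a median of 0.00 over all genes tested. Nfkbia, which encodes the inhibitor that holds NF-kB in the cytoplasm, had 4799.8 normalised reads in the H3.1 K36M line and 5288 in the H3.1 K36R line, against 1219 to 2201 in the 6 H3.3 lines (median 1739), a difference of 1.58 (SE 0.13, adjusted p = 0.00142). Relb, a subunit of the non-canonical NF-kB dimer, had 986 and 1119.6 normalised reads in the H3.1 lines, against 307 to 403 (median 342) in the H3.3 lines, a difference of 1.34 (SE 0.11, adjusted p = 0.00145). Both H3.1 lines lay above all H3.3 lines for both genes. Nfkb2, the precursor of the partner of RelB, and the IkB-family genes Nfkbie and Bcl3 had differences of 0.98 (SE 0.10, adjusted p = 0.00295), 1.08 (SE 0.12, adjusted p = 0.00324) and 1.44 (SE 0.13, adjusted p = 0.00155). Vcam1, an adhesion molecule for leukocytes, had 9159 and 7986 normalised reads in the H3.1 lines, against 2487 to 3570.4 (median 2939) in the H3.3 lines, a difference of 1.45 (SE 0.12, adjusted p = 0.0014). These 6 genes kept their call in every fit with a library left out.

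The cytokine list held 11 higher genes of 22 tested (50.0%, against 5.65% of all genes tested), with a median of 0.50. Il6, the cytokine that drives the acute-phase response, had 647 normalised reads in the H3.1 K36M line and 719 in the H3.1 K36R line, against 22.1 to 179 in the 6 H3.3 lines (median 102), a difference of 2.18 (SE 0.25, adjusted p = 0.00407). Osmr, a receptor subunit of the IL-6 family, had 7080.1 and 5132 normalised reads in the H3.1 lines, against 2180.2 to 3011 (median 2655) in the H3.3 lines, a difference of 1.15 (SE 0.13, adjusted p = 0.00375), and both genes kept their call throughout. Il6st, the shared signalling receptor gp130, had a difference of 0.99 (SE 0.12, adjusted p = 0.00491) and was lost without H3.1 K36M (adjusted p = 0.0574). Il33, an alarmin cytokine, had a difference of 1.83 (SE 0.42, adjusted p = 0.0351) and was lost without H3.1 K36M, H3.3 K36A or H3.3 WT (adjusted p up to 0.245). Fewer genes of the cytokine list were called without H3.1 K36M (median 0.59) or without H3.1 K36R (median 0.45). Of 9 chemokines tested, 5 were higher (median 1.04), and the count was 3 without H3.1 K36M. The median was 1.55 without H3.1 K36M and 1.77 without H3.1 K36R. Besides the 4 given above, the chemokine Cxcl16 was called, at 0.72 (SE 0.14, adjusted p = 0.0233), and was lost without H3.1 K36M (adjusted p = 0.169).

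The called acute-phase and complement genes were higher as well. Of 16 genes on the Serpina3 and acute-phase list 9 passed the filter and were all called higher, with 7 to 9 called when a library was left out. Genes such as Steap4 and Serpina3f passed only through their reads in the H3.1 lines, so that the filter in part sets this count. Without the filter 11 of 15 were higher (median 2.02), and with the stricter filter 4 of 4 (median 1.91). The summed level of the list was 33010 and 78469 normalised reads in the H3.1 lines, against 6282 to 46198 in the H3.3 lines. By that sum H3.1 K36M lay below the H3.3 K36L, K36A, K36R and WT lines. Hp, haptoglobin, had 288 and 446 normalised reads in the H3.1 lines, against 5.7 to 43.9 (median 17.4) in the H3.3 lines, a difference of 2.11 (SE 0.21, adjusted p = 0.00261). Cp, the copper carrier ceruloplasmin, had 3462 and 10659 normalised reads in the H3.1 lines, against 1196 to 2279.9 (median 1979) in the H3.3 lines, a difference of 1.80 (SE 0.36, adjusted p = 0.0237), and was lost without H3.1 K36R (adjusted p = 0.167) or H3.3 K36M (adjusted p = 0.0546). Of 12 complement genes tested, 6 were called higher (50.0%, against 5.65% of all genes tested) and 4 had differences below 0 (median 0.91). Fewer were called without H3.1 K36M (median 1.01) or without H3.1 K36R (median 0.78). Without the filter 6 of 19 were higher (median 0.11). C4b, a component of the classical pathway, had 147 and 241 normalised reads in the H3.1 lines, against 38 to 61.3 (median 51.1) in the H3.3 lines, a difference of 1.06 (SE 0.13, adjusted p = 0.00515), and kept its call throughout. C1s and C1ra, which encode proteases of the first complement component, had differences of 2.29 (SE 0.33, adjusted p = 0.00956) and 1.39 (SE 0.29, adjusted p = 0.0272). C1s was lost without H3.1 K36R (adjusted p = 0.0591), and C1ra without H3.1 K36M, H3.1 K36R, H3.3 K36I or H3.3 K36L (adjusted p up to 0.197). Because the RNA came from whole cultures, more cells of a type and more RNA per cell cannot be told apart for any of these genes.

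**Figure D2:**
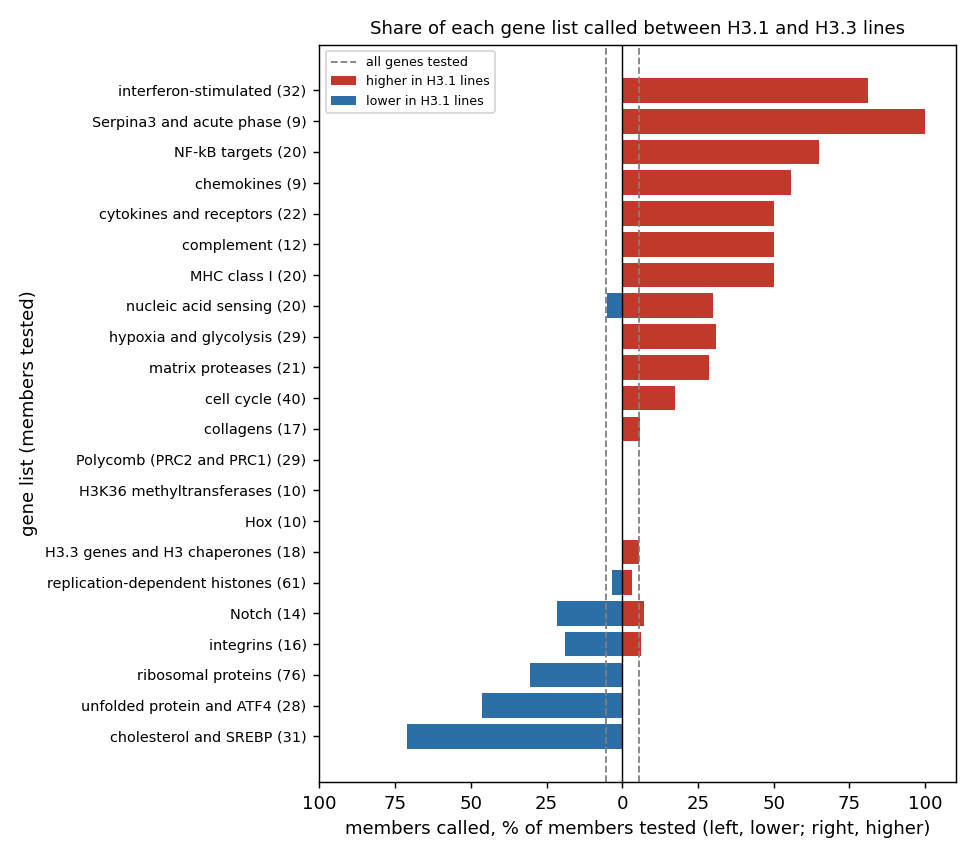
Share of tested genes called higher and lower in the H3.1 lines for gene lists, in percent, beside the shares over all genes tested (5.65% and 5.37%). Inflammatory and interferon lists held called genes in the higher direction, and the cholesterol, ATF4 and ribosomal protein lists held them in the lower direction.

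Most interferon-stimulated genes were higher in the H3.1 lines. Of 32 tested, 26 were called higher (81.2%, against 5.65% of all genes tested) and none was called lower, with a median difference of 1.05. The count was 16 without both H3.3 K36A and H3.3 K36L (median 0.97). Fewer genes were called without H3.1 K36M or without H3.1 K36R, where 1 H3.1 library is left. The median was then 1.06 and 1.18. Gbp2 (chromosome 3, 142620663 to 142638008), an interferon-induced guanylate-binding protein, had 1163 normalised reads in the H3.1 K36M line and 885 in the H3.1 K36R line, against 26.8 to 179 in the 6 H3.3 lines (median 77.3), a difference of 2.53 (SE 0.23, adjusted p = 0.0017). Gbp3 had 544 and 447 normalised reads in the H3.1 lines, against 17.5 to 56 (median 31.7) in the H3.3 lines, a difference of 2.25 (SE 0.15, adjusted p = 0.000582). Iigp1, an immunity-related GTPase, had 977 and 299.6 normalised reads in the H3.1 lines, against 1.9 to 38.2 (median 8.22) in the H3.3 lines, a difference of 2.66 (SE 0.18, adjusted p = 0.000582). For all 3 the H3.1 lines lay above every H3.3 line. These 3 genes kept their call in every fit with a library left out. Trim30a, a regulator of Toll-like receptor signalling, had a difference of 2.36 (SE 0.36, adjusted p = 0.0106) and was lost without H3.1 K36M (adjusted p = 0.105). Ifit1, a sensor of viral RNA caps, had a difference of 1.77 (SE 0.26, adjusted p = 0.00989) and was lost without H3.1 K36M (adjusted p = 0.0967).

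The interferon-stimulated response element was searched as GAAA, any 2 bases and GAAA, on both strands and with overlapping matches counted. It occurred in 11 of the 23 windows at hand for the list (47.8%), against 3.02% of all windows. The list holds genes chosen as interferon-stimulated, so this share describes the list and not the difference between the histones. The stretches around a match in Gbp2, Gbp3 and Ifit1 are shown as examples from that list, with the match in capitals on the strand of the gene, where it reads as the reverse complement.
Gbp2 (ISRE letters, chr3:142620579-142620638, plus strand): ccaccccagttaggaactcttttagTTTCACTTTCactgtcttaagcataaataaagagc
Gbp3 (ISRE letters, chr3:142559974-142560033, plus strand): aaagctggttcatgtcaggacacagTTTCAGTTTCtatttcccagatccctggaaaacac
Ifit1 (ISRE letters, chr19:34640760-34640819, plus strand): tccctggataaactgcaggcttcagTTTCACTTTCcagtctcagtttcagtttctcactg

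Genes of antigen presentation by MHC class I, a pathway that interferon induces, gave calls in the higher direction. Of 20 genes tested 10 were higher and none was lower (median 0.72), and the count was 2 without H3.1 K36M and 6 without H3.3 K36I. B2m, the invariant light chain, had 79043 normalised reads in the H3.1 K36M line and 29209 in the H3.1 K36R line, against 13261 to 22366 in the 6 H3.3 lines (median 15949), a difference of 1.36 (SE 0.17, adjusted p = 0.00587). The H3.1 K36M library stood well above H3.1 K36R, and both lay above all H3.3 libraries. The summed level of the list was 266464 and 153483 normalised reads in the H3.1 lines, against 141181 to 161441 in the H3.3 lines. By that sum H3.1 K36M alone lay above the H3.3 lines. Tap2 and Tap1, the subunits of the peptide transporter, had differences of 1.15 (SE 0.15, adjusted p = 0.00698) and 1.15 (SE 0.13, adjusted p = 0.00407). Tap2 kept its call throughout, while Tap1 was lost without H3.1 K36M (adjusted p = 0.0511). Exons of Tap1 overlap those of Psmb9 on the other strand. Among 20 genes of nucleic acid sensing, 6 were higher and 1 was lower (median 0.33), and the higher count was 1 without H3.1 K36M. Tlr2, a receptor for bacterial lipoproteins, had 1782 and 1449.8 normalised reads in the H3.1 lines, against 278 to 628 (median 496) in the H3.3 lines, a difference of 1.63 (SE 0.20, adjusted p = 0.00515), and kept its call. Casp4, the caspase that senses cytosolic lipopolysaccharide, had 881 and 1351 normalised reads in the H3.1 lines, against 21.1 to 212 (median 85) in the H3.3 lines, a difference of 2.76 (SE 0.35, adjusted p = 0.00548), and was lost without H3.1 K36M (adjusted p = 0.0526). Mavs, the adaptor of RNA sensors, was the lower gene, at -0.41 (SE 0.06, adjusted p = 0.0117), and was lost without H3.1 K36M (adjusted p = 0.0927). The leukocyte marker Cd53 was called at 1.09 (SE 0.25, adjusted p = 0.0328) with overlapping groups, at 9176 and 242 normalised reads in the H3.1 lines, against 39 to 4564 (median 117) in the H3.3 lines, and was lost without any library other than H3.3 K36R (adjusted p up to 0.198). It was high in the K36M line of either histone and in H3.3 K36I, while Ptprc and Tyrobp stayed near 0. The part of other cell types in the immune lists was not tested beyond these levels.

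The 15 genes with the largest negative differences, among called genes without overlap between the groups, had varied functions. Mal (chromosome 2, 127633226 to 127656695), a proteolipid of membrane rafts, had 187 normalised reads in the H3.1 K36M line and 348 in the H3.1 K36R line, against 4129 to 32034 in the 6 H3.3 lines (median 11786). Its difference was -4.80 (SE 0.50, adjusted p = 0.00295), and it kept its call in all 8 fits with a library left out. Asic1 (chromosome 15, 99670197 to 99701130), an acid-sensing ion channel, had 995 normalised reads in the H3.1 K36M line and 961 in the H3.1 K36R line, against 2905 to 4647 in the 6 H3.3 lines (median 3621), a difference of -1.73 (SE 0.13, adjusted p = 0.000889). The H3.1 lines were close to each other for this gene. Pde8b, a cAMP phosphodiesterase, had 193 and 270.1 normalised reads in the H3.1 lines, against 798 to 2155 (median 1174) in the H3.3 lines, a difference of -2.08 (SE 0.28, adjusted p = 0.00748). Both kept their call throughout. Car6, a secreted carbonic anhydrase, had 5.26 normalised reads in the H3.1 K36M line and 71.1 in the H3.1 K36R line, against 349 to 718 in the 6 H3.3 lines (median 456), a difference of -2.25 (SE 0.29, adjusted p = 0.00551), and was lost without H3.1 K36M (adjusted p = 0.0567). The H3.1 K36M library held almost no reads of it.

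Receptors and signalling proteins were among the other genes with large negative differences. Itga3, an integrin subunit of laminin receptors, had 73.6 and 112 normalised reads in the H3.1 lines, against 217 to 986 (median 637) in the H3.3 lines, a difference of -1.90 (SE 0.37, adjusted p = 0.0229), and was lost without H3.1 K36M (adjusted p = 0.173) or H3.3 K36I (adjusted p = 0.0555). Erbb3, a receptor of the EGF receptor family, had 56.5 and 102 normalised reads in the H3.1 lines, against 259 to 901 (median 377) in the H3.3 lines, a difference of -1.62 (SE 0.36, adjusted p = 0.0305), and was lost without H3.1 K36M, H3.1 K36R, H3.3 K36M, H3.3 K36I or H3.3 K36L (adjusted p up to 0.163). Both H3.1 lines lay below all H3.3 lines for these genes, as the rule that chose them requires. Spry1, a feedback inhibitor of receptor tyrosine kinases, had a difference of -1.88 (SE 0.38, adjusted p = 0.0244) and was lost without H3.1 K36M, H3.3 K36M or H3.3 K36I (adjusted p up to 0.179). Medag, a gene of adipogenesis, had a difference of -3.15 (SE 0.51, adjusted p = 0.0121) and was lost without H3.1 K36R (adjusted p = 0.0896). The groups did not overlap for any of these, again by that rule. Perp, a p53 target of desmosomes, had a difference of -1.64 (SE 0.26, adjusted p = 0.0118) and was lost without H3.1 K36R (adjusted p = 0.0598). Tubb3, a tubulin used as a neuronal marker, had a difference of -1.68 (SE 0.26, adjusted p = 0.0115) and was lost without H3.1 K36R (adjusted p = 0.0807). The other genes of this set were Hid1 (-2.31), lost without any library other than H3.1 K36R or H3.3 K36R (adjusted p up to 0.218), Cdsn (-2.29), lost without H3.1 K36M, H3.3 K36M or H3.3 K36I (adjusted p up to 0.113), Ccdc88c (-1.85), lost without any library other than H3.3 K36L or H3.3 K36R (adjusted p up to 0.232), Sncg (-1.69), lost without any library other than H3.1 K36R or H3.3 K36R (adjusted p up to 0.229), and Cystm1 (-1.58), which kept its call.

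Genes of cholesterol and fatty acid synthesis were lower in the H3.1 lines. Of 31 tested, 22 were lower (71.0%, against 5.37% of all genes tested) and none was higher. All 31 differences were below 0, and the median was -0.75. Insig1, which retains the sterol sensor SCAP in the endoplasmic reticulum, had 6037 normalised reads in the H3.1 K36M line and 8190.2 in the H3.1 K36R line, against 11958 to 20914 in the 6 H3.3 lines (median 14769), a difference of -1.12 (SE 0.20, adjusted p = 0.0162). Lss, lanosterol synthase, had 3108 normalised reads in the H3.1 K36M line and 4134 in the H3.1 K36R line, against 6309.9 to 9379 in the 6 H3.3 lines (median 7423), a difference of -1.09 (SE 0.16, adjusted p = 0.00979). Both H3.1 lines lay below all H3.3 lines for both genes. Mvd and Fdps, enzymes of the mevalonate pathway, had differences of -1.05 (SE 0.12, adjusted p = 0.00417) and -0.998 (SE 0.16, adjusted p = 0.0112). Lss, Mvd and Fdps kept their call in every fit with a library left out. Scd1, a fatty acid desaturase, had a difference of -1.07 (SE 0.17, adjusted p = 0.011) and was lost without H3.1 K36M (adjusted p = 0.0974), and Insig1 without H3.1 K36M (adjusted p = 0.102). The transcription factors of the pathway, Srebf1 and Srebf2, had differences of -0.77 (SE 0.11, adjusted p = 0.00956) and -0.49 (SE 0.13, adjusted p = 0.0484). Srebf1 was lost without H3.1 K36M (adjusted p = 0.0904), and Srebf2 without any library other than H3.1 K36R or H3.3 K36R (adjusted p up to 0.311). Fewer genes of the list were called without H3.1 K36M (median -0.51). The count was 14 without both H3.3 K36A and H3.3 K36L. In the fit restricted to the K36M and K36R lines it was 0, while the median was -0.70. That fit holds few lines, so the 0 does not show that the difference was absent. The sterol regulatory element, searched as TCACNCCAC on both strands, occurred in 1 of 20 windows at hand for the list, that of Hmgcs1, against 1.26% of all windows.
Hmgcs1 (SRE letters, chr13:119690189-119690247, plus strand): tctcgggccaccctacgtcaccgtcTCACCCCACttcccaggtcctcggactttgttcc

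**Figure D3:**
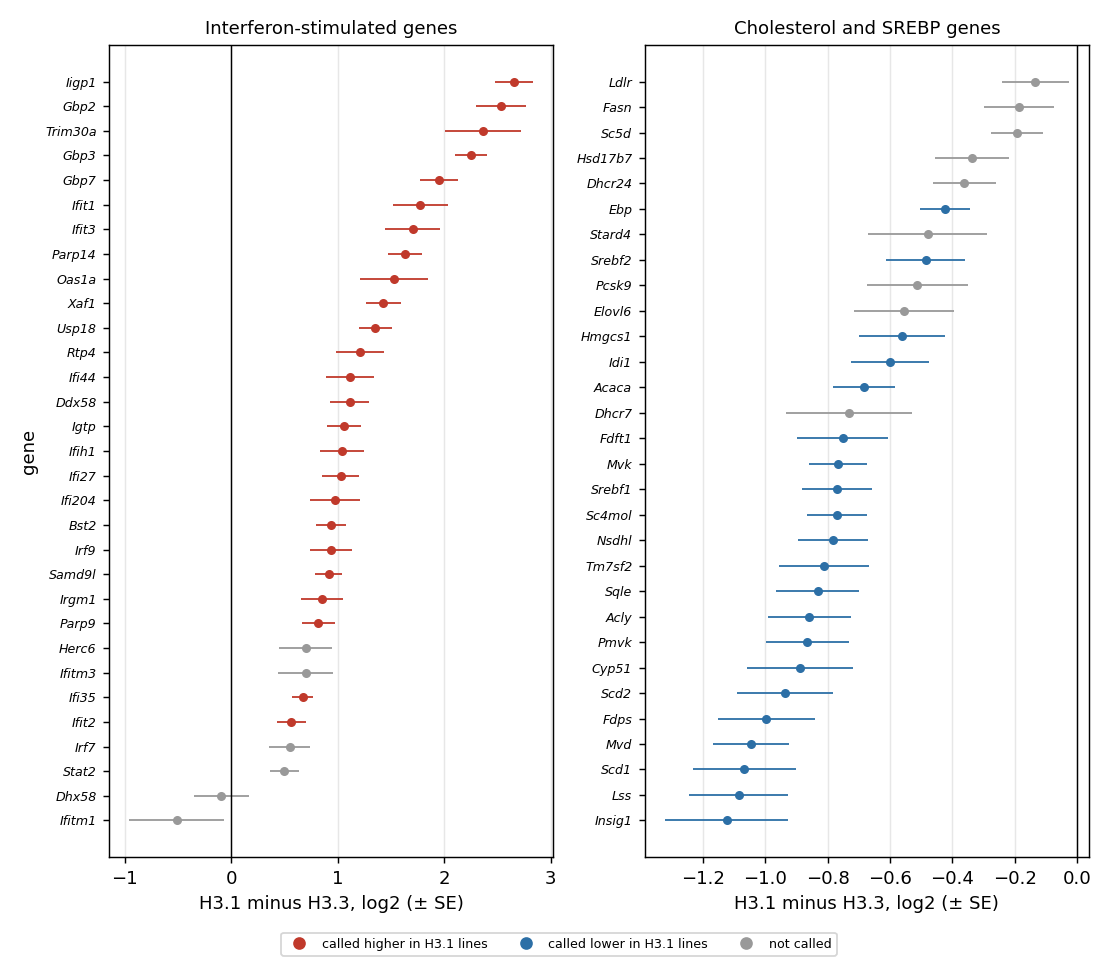
Difference between the H3.1 and H3.3 lines (x axis, deposited log2 scale) for tested interferon-stimulated genes and genes of cholesterol and fatty acid synthesis, 1 point per gene with its SE, coloured by call. Genes not reported here are not drawn. Called points lie above 0 on the interferon side and below 0 on the sterol side.

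Part of the genes of the ATF4 and unfolded protein responses were lower as well. The share called lower was 46.4%, against 5.37% of all genes tested. Of 28 tested 13 were lower and none was higher (median -0.35), and the count was 0 without H3.1 K36M, 4 without H3.3 K36M, 3 without H3.3 K36I, 4 without H3.3 K36L, 7 without H3.3 K36A and 5 without H3.3 WT. Chac1, a glutathione-degrading target of ATF4, had 2451 normalised reads in the H3.1 K36M line and 2259.9 in the H3.1 K36R line, against 2972 to 4680.1 in the 6 H3.3 lines (median 3867), a difference of -0.73 (SE 0.13, adjusted p = 0.0172), and was lost without H3.1 K36M (adjusted p = 0.143). Asns, asparagine synthetase, had 14674 and 18358 normalised reads in the H3.1 lines, against 23200.1 to 27791 (median 24782) in the H3.3 lines, a difference of -0.59 (SE 0.10, adjusted p = 0.0131), and was lost without H3.1 K36M (adjusted p = 0.112). Both H3.1 lines lay below the H3.3 lines in these genes. Atf4 itself had a difference of -0.61 (SE 0.13, adjusted p = 0.029) and was lost without H3.1 K36M, H3.3 K36M, H3.3 K36I, H3.3 K36L or H3.3 WT (adjusted p up to 0.202). Trib3 and Atf3, targets of ATF4, had differences of -1.22 (SE 0.32, adjusted p = 0.0479) and -1.18 (SE 0.29, adjusted p = 0.0407). Trib3 was lost without any library other than H3.1 K36R (adjusted p up to 0.205), and Atf3 without any library other than H3.3 K36R or H3.3 WT (adjusted p up to 0.252). The letters TGATGNAA, searched on both strands, occurred in 7 of the 25 windows at hand (28.0%), against 2.49% of all windows. The list was chosen as genes of these responses, so this share describes the list and not the difference between the histones. Some genes that hold the letters were not called. The match in Chac1 is shown as an example, and its call was lost with only 1 library left out.
Chac1 (ATF4 letters, chr2:119351024-119351081, plus strand): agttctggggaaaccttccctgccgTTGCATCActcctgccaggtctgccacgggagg

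Ribosomal protein genes had small differences, nearly all of one sign. Of 76 tested 23 were called lower (30.3%, against 5.37% of all genes tested) and none was called higher. In all, 75 differences were below 0, and the median was -0.31. The count was 0 without H3.1 K36M, 5 without H3.3 K36M, 2 without H3.3 K36I, 7 without H3.3 K36L and 3 without H3.3 WT, and the median was -0.18 without H3.1 K36M. Rpl8, of the large subunit, had 47868 normalised reads in the H3.1 K36M line and 51845 in the H3.1 K36R line, against 62115 to 84047 in the 6 H3.3 lines (median 74857), a difference of -0.59 (SE 0.13, adjusted p = 0.0291), and was lost without H3.1 K36M, H3.1 K36R, H3.3 K36M, H3.3 K36I or H3.3 WT (adjusted p up to 0.19). Rpl18 had 4729 and 5508 normalised reads in the H3.1 lines, against 6719 to 8453 (median 7186) in the H3.3 lines, a difference of -0.54 (SE 0.10, adjusted p = 0.0175), and was lost without H3.1 K36M (adjusted p = 0.105). Its exons overlap those of Sphk2 on the other strand. Rps7, of the small subunit, had a difference of -0.52 (SE 0.11, adjusted p = 0.0303) and was lost without H3.1 K36M, H3.3 K36M, H3.3 K36I, H3.3 K36L or H3.3 WT (adjusted p up to 0.204). Many of these genes have processed pseudogenes, so that their counts depend on how multiply matching reads were treated.

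Hypoxia and glycolysis genes, matrix proteases and cell cycle genes held calls in the higher direction. Of 29 hypoxia and glycolysis genes 9 were higher (median 0.35), and the count was 1 without H3.1 K36M, 4 without H3.3 K36M, 5 without H3.3 K36I, 4 without H3.3 K36L and 4 without H3.3 WT. Bnip3, a mitophagy receptor induced by HIF-1, had 3202 and 2807 normalised reads in the H3.1 lines, against 870.1 to 1379.7 (median 1215) in the H3.3 lines, a difference of 1.24 (SE 0.14, adjusted p = 0.00379), and kept its call throughout. Pfkl, a phosphofructokinase, had a difference of 1.13 (SE 0.19, adjusted p = 0.0153) and was lost without H3.1 K36M (adjusted p = 0.122) or H3.1 K36R (adjusted p = 0.0573). Of 40 cell cycle genes 7 were higher (median 0.15), and the count was 0 without H3.1 K36M, 3 without H3.1 K36R, 1 without H3.3 K36M, 4 without H3.3 K36I, 2 without H3.3 K36L, 3 without H3.3 K36A and 1 without H3.3 WT. The median was 0.17 without H3.1 K36M and 0.09 without H3.1 K36R. Rrm2, a subunit of ribonucleotide reductase, had 13912 and 9936 normalised reads in the H3.1 lines, against 5211 to 7359 (median 6521) in the H3.3 lines, a difference of 0.91 (SE 0.17, adjusted p = 0.0185), and was lost without H3.1 K36M (adjusted p = 0.0718). The other 6 called genes of that list, among them Foxm1 (0.35) and E2f1 (0.36), were kept in at most 3 of the 8 fits. Of 21 matrix proteases and inhibitors 6 were higher (median 0.42). Mmp14, a membrane-bound metalloprotease, had a difference of 0.97 (SE 0.19, adjusted p = 0.0235) and was lost without H3.1 K36M, H3.1 K36R or H3.3 K36I (adjusted p up to 0.133), and Adamts4, an aggrecanase, had one of 1.003 (SE 0.18, adjusted p = 0.0164) and was lost without H3.1 K36M (adjusted p = 0.141). The count for the proteases was 0 without H3.1 K36M, 2 without H3.1 K36R and 3 without H3.3 K36I, and the median was 0.10 without H3.1 K36M.

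Matrix and adhesion genes moved singly and in both directions. The shares called higher and lower were 16.7% and 5.56% of basement membrane genes, 6.25% and 18.8% of integrins and 5.88% and 0.0% of collagens. Over all genes tested they were 5.65% and 5.37%. Of 18 basement membrane genes 3 were higher and 1 was lower. Lama5, a laminin chain, had 1711 normalised reads in the H3.1 K36M line and 199 in the H3.1 K36R line, against 628 to 9825 in the 6 H3.3 lines (median 1426). The H3.3 K36M and K36I libraries stood above all others for this gene, and within the substitution classes the difference was -2.03 (SE 0.33, adjusted p = 0.0123), lost without H3.1 K36M (adjusted p = 0.114). Lama4, another laminin chain, had 30041 and 29175 normalised reads in the H3.1 lines, against 6351 to 17843 (median 14925) in the H3.3 lines, a difference of 1.41 (SE 0.24, adjusted p = 0.0138), lost without H3.1 K36M (adjusted p = 0.0576). Integrins gave 1 higher and 3 lower genes of 16, and the lower count was 0 without H3.1 K36M. The higher count was 3 without H3.3 K36R. Itga1, a collagen receptor subunit, had 1199.96 normalised reads in the H3.1 K36M line and 6389 in the H3.1 K36R line, against 264 to 948 in the 6 H3.3 lines (median 429), a difference of 2.45 (SE 0.44, adjusted p = 0.0168), lost without H3.1 K36R (adjusted p = 0.119). Itga6, a laminin receptor subunit, had a difference of -1.15 (SE 0.18, adjusted p = 0.0111) and was lost without H3.1 K36M (adjusted p = 0.107). Ltbp2, a protein of elastic fibres, had 42875 and 41911 normalised reads in the H3.1 lines, against 10744 to 16942 (median 13089) in the H3.3 lines, a difference of 1.66 (SE 0.15, adjusted p = 0.00171), and kept its call. Among 17 collagens 1 was called, Col12a1 at 0.89 (SE 0.22, adjusted p = 0.043), which was lost without any library other than H3.3 K36R (adjusted p up to 0.27).

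Growth factor and patterning pathways likewise gave single genes. The shares called higher and lower were 7.69% and 3.85% for BMP and TGF-beta, 0.0% and 10.0% for Hedgehog and 7.14% and 21.4% for Notch. For imprinted genes they were 4.35% and 0.0%, and over all genes tested 5.65% and 5.37%. Fst, follistatin, which binds activins, had 2546 normalised reads in the H3.1 K36M line and 4398 in the H3.1 K36R line, against 375 to 1727 in the 6 H3.3 lines (median 1307), a difference of 1.89 (SE 0.18, adjusted p = 0.00233), and kept its call in every fit with a library left out. It was 1 of 3 called genes among 26 of BMP and TGF-beta signalling, 2 of them higher. Gli1, the transcriptional target used as a readout of Hedgehog signalling, had 68.3 and 183 normalised reads in the H3.1 lines, against 358 to 601 (median 389.7) in the H3.3 lines, a difference of -1.21 (SE 0.17, adjusted p = 0.00956), lost without H3.1 K36M (adjusted p = 0.0885), and was the 1 called gene of 10 on that list. Its exons overlap those of Arhgap9 on the other strand. Notch genes gave 1 higher and 3 lower calls of 14. The lower count was 0 without H3.1 K36M, 1 without H3.1 K36R and 1 without H3.3 K36I, and the higher one was 0 without H3.1 K36M, 0 without H3.3 K36M, 0 without H3.3 K36I, 0 without H3.3 K36L and 0 without H3.3 WT. Jag2, a Notch ligand, had 25 and 28.4 normalised reads in the H3.1 lines, against 90.2 to 439 (median 205) in the H3.3 lines, a difference of -1.55 (SE 0.28, adjusted p = 0.0175), lost without H3.1 K36M (adjusted p = 0.14), and the receptor Notch3 had a difference of -1.13 (SE 0.22, adjusted p = 0.0212), lost without H3.1 K36M, H3.1 K36R or H3.3 K36I (adjusted p up to 0.138). Igfbp4, which binds insulin-like growth factors, had 3104 normalised reads in the H3.1 K36M line and 838 in the H3.1 K36R line, against 2515 to 32041 in the 6 H3.3 lines (median 6059.6). It was high in the H3.3 K36M and K36I lines, and the difference within the classes was -2.59 (SE 0.39, adjusted p = 0.0102), lost without H3.1 K36M (adjusted p = 0.1). Cebpd, an early adipogenic transcription factor that also responds to IL-6, had a difference of 1.60 (SE 0.10, adjusted p = 0.000435), and Pdgfra, a platelet-derived growth factor receptor, one of 0.84 (SE 0.10, adjusted p = 0.00515). Both kept their call throughout, while Pparg, the master regulator of adipogenesis, had a difference of -0.86 (SE 0.19, adjusted p = 0.0314) and was lost without H3.1 K36M, H3.3 K36M, H3.3 K36I or H3.3 WT (adjusted p up to 0.221). The imprinted gene Impact, a regulator of the kinase GCN2, was the 1 called gene of 23 imprinted genes, at 16316 and 12208 normalised reads in the H3.1 lines, against 6533 to 7577 (median 7029) in the H3.3 lines, a difference of 0.99 (SE 0.12, adjusted p = 0.00456) that kept its call.

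The counts of calls over these lists changed with the fit. With no term for the inhibitory substitutions, 18 interferon-stimulated, 0 MHC class I, 8 NF-kB, 3 cytokine, 4 chemokine, 3 complement, 7 acute-phase, 4 hypoxia, 1 cell cycle and 3 protease genes were higher, and 17 cholesterol, 3 ATF4 and 7 ribosomal protein genes were lower. With library weights, 15 interferon-stimulated, 5 MHC class I, 10 NF-kB, 5 cytokine, 2 chemokine, 4 complement, 6 acute-phase, 3 hypoxia, 1 cell cycle and 1 protease genes were higher, and 17 cholesterol, 2 ATF4 and 2 ribosomal protein genes were lower. Without both H3.3 K36A and H3.3 K36L, 16 interferon-stimulated, 7 MHC class I, 10 NF-kB, 6 cytokine, 2 chemokine, 5 complement, 6 acute-phase, 3 hypoxia, 0 cell cycle and 2 protease genes were higher, and 14 cholesterol, 2 ATF4 and 0 ribosomal protein genes were lower. In the fit restricted to the K36M and K36R lines, 4 acute-phase, 2 chemokine, 1 interferon-stimulated, 1 complement and 1 nucleic acid sensing genes were called, and none of the MHC class I, NF-kB, cytokine, hypoxia, cell cycle, protease, cholesterol, ATF4 and ribosomal protein lists. The restricted fit rests on 2 lines of each histone, so a missing call there does not show that a difference was absent. Its median was -0.70 for the cholesterol list and 0.73 for MHC class I, against -0.75 and 0.72 in the first fit. For the hypoxia list it was smaller, 0.25 against 0.35. The immediate early and Notch lists held no call with no term for the inhibitory substitutions. No list among these changed the sign of its median in any of these fits except Notch. The Notch median was 0.01 in the first fit and -0.16 with no term for the inhibitory substitutions. It was -0.16 in the fit restricted to the K36M and K36R lines and -0.07 without both H3.3 K36A and H3.3 K36L.

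The other lists gave few calls. Over all genes tested 5.65% were called higher and 5.37% lower. The shares were 14.8% and 7.41% for immediate early genes and 7.69% and 0.0% for Wnt genes. They were 3.57% and 3.57% for p53 and CDK inhibitor genes and 2.86% and 5.71% for FGF, EGF and PDGF signalling. For the few proliferin genes they were 40.0% and 0.0%. Of 27 immediate early genes 4 were higher and 2 were lower. The higher count was 0 without H3.1 K36M, 1 without H3.1 K36R, 0 without H3.3 K36I and 0 without H3.3 K36L, and the lower one was 0 without H3.1 K36M, 0 without H3.1 K36R, 0 without H3.3 K36M, 0 without H3.3 K36I, 0 without H3.3 K36L, 0 without H3.3 K36A and 1 without H3.3 WT. Junb, an AP-1 subunit, had a difference of 0.71 (SE 0.15, adjusted p = 0.0263), lost without H3.1 K36M, H3.1 K36R, H3.3 K36I or H3.3 K36L (adjusted p up to 0.137), and the orphan receptor gene Nr4a1 had one of -1.29 (SE 0.32, adjusted p = 0.0432), lost without any library other than H3.3 K36R (adjusted p up to 0.232). Of 26 Wnt genes 2 were higher and none was lower. Sfrp1, a secreted Wnt antagonist, had 3173 and 2101 normalised reads in the H3.1 lines, against 70.9 to 665 (median 414) in the H3.3 lines, a difference of 2.56 (SE 0.57, adjusted p = 0.0321) that was lost without H3.1 K36M, H3.1 K36R, H3.3 K36M, H3.3 K36I or H3.3 WT (adjusted p up to 0.175). Of 28 p53 and CDK inhibitor genes Perp was lower, as given above, and 1 was higher, the death receptor gene Fas, at 3596 and 3477 normalised reads in the H3.1 lines, against 219 to 1986 (median 1091) in the H3.3 lines. Its difference was 2.08 (SE 0.42, adjusted p = 0.0249), lost without H3.1 K36M (adjusted p = 0.169) or H3.3 K36M (adjusted p = 0.052). Of 35 genes of FGF, EGF and PDGF signalling 1 was higher and 2 were lower, and the higher one, the receptor gene Fgfr2, had a difference of 1.79 (SE 0.42, adjusted p = 0.0372), lost without any library other than H3.3 K36R or H3.3 WT (adjusted p up to 0.22). Of 20 smooth muscle genes 3 were higher (15.0%), and of 13 cartilage genes 1 was higher (7.69%). Of 11 osteoblast genes 1 was lower (9.09%), and of 24 YAP and TEAD targets 2 were higher (8.33%). The cartilage, osteoblast and YAP and TEAD shares lie near those over all genes tested. Serpine2, a protease inhibitor of the extracellular space, had the largest difference of the protease list, at 25500.1 and 55166 normalised reads in the H3.1 lines, against 1517 to 19851 (median 10997) in the H3.3 lines, a difference of 2.48 (SE 0.53, adjusted p = 0.0291), lost without H3.1 K36M, H3.1 K36R or H3.3 K36L (adjusted p up to 0.204). Of 5 proliferin genes tested 2 were called higher, with overlapping groups, and the summed level of the list was 18683 and 778 normalised reads in the H3.1 lines, against 433 to 2221 in the H3.3 lines, so that H3.1 K36M alone was high. Prl2c2, at 2.97 (SE 0.75, adjusted p = 0.044), was lost without H3.1 K36M, H3.3 K36I, H3.3 K36L, H3.3 K36A or H3.3 WT (adjusted p up to 0.291), and Prl2c3, at 2.37 (SE 0.58, adjusted p = 0.0411), without any library other than H3.1 K36R or H3.3 K36R (adjusted p up to 0.187). They are near-identical copies.

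Among the genes that encode H3.3, H3 chaperones and the enzymes and readers of lysine 36, 1 was called. That is 5.56% of the 18 genes for H3 variants and chaperones, near the 5.65% of all genes tested called higher. H3f3a had 8434 normalised reads in the H3.1 K36M line and 11932 in the H3.1 K36R line, against 7441 to 9361 in the 6 H3.3 lines (median 8029), a difference of 0.32 (SE 0.11, adjusted p = 0.103). H3f3b, the other H3.3 gene, had 43612 normalised reads in the H3.1 K36M line and 76113 in the H3.1 K36R line, against 54032 to 103244 in the 6 H3.3 lines (median 76078), a difference of -0.32 (SE 0.19, adjusted p = 0.29). The groups overlapped for both and neither passed the test. Whether reads of a transgene fall on these genes depends on its sequence, which the labels do not give. Of 18 genes for H3 variants and chaperones 1 was higher, Hjurp, the chaperone of the centromeric variant CENP-A, with 19922 normalised reads in the H3.1 K36M line and 21567 in the H3.1 K36R line, against 14484 to 16446 in the 6 H3.3 lines (median 14769), a difference of 0.47 (SE 0.07, adjusted p = 0.0101), lost without H3.1 K36M (adjusted p = 0.066). None of 10 H3K36 methyltransferase genes, 29 Polycomb genes, 22 genes for H3K36 demethylases and readers and 10 Hox genes was called.

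Replication-dependent histone genes lay on opposite sides of the H3.3 lines in the 2 H3.1 lines. Of 61 tested 2 were higher and 2 were lower (median -0.19), 3.28% each way, against 5.65% and 5.37% of all genes tested. The summed level of the list was 254794 normalised reads in the H3.1 K36M line and 410637 in the H3.1 K36R line, against 337405 to 386711 in the H3.3 lines. Without H3.1 K36R 31 of the genes were lower (median -0.64), and without H3.1 K36M 1 was higher (median 0.14). These messengers lack poly(A) tails, and the labels name the TruSeq protocol with no word on poly(A) selection. Hist2h2be, a histone H2B gene, had 268 and 491 normalised reads in the H3.1 lines, against 105 to 175 (median 155) in the H3.3 lines, a difference of 0.92 (SE 0.19, adjusted p = 0.0274), lost without H3.1 K36R, H3.3 K36I or H3.3 WT (adjusted p up to 0.177). Near-identical copies within this family make the count of any 1 gene uncertain.

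K36M and K36R were present on both histones, which allowed 1 line to be set against 1 with the same substitution, without a test. H3.1 K36M exceeded H3.3 K36M by at least 1 in 497 genes and lay at least 1 below it in 217. H3.1 K36R exceeded H3.3 K36R by at least 1 in 262 genes and lay below in 161. The genes higher in both pairs numbered 138 (0.971% of those tested), which is 27.8% of the genes of the K36M pair and 52.7% of those of the K36R pair. The genes lower in both pairs numbered 32 (0.225%), or 14.7% and 19.9% of the 2 sets, and 7 genes went opposite ways. Among the called genes 122 higher and 24 lower ones passed 1 in both pairs. The K36M pair had the larger difference in 537 of the 803 higher genes (medians 0.70 and 0.52) and in 544 of the 764 lower genes (medians -0.50 and -0.35). C3 differed by 6.82 in the K36M pair and 6.76 in the K36R pair, close to each other. Lss differed by -1.45 in the K36M pair and -0.60 in the K36R pair, further apart.

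**Figure D4:**
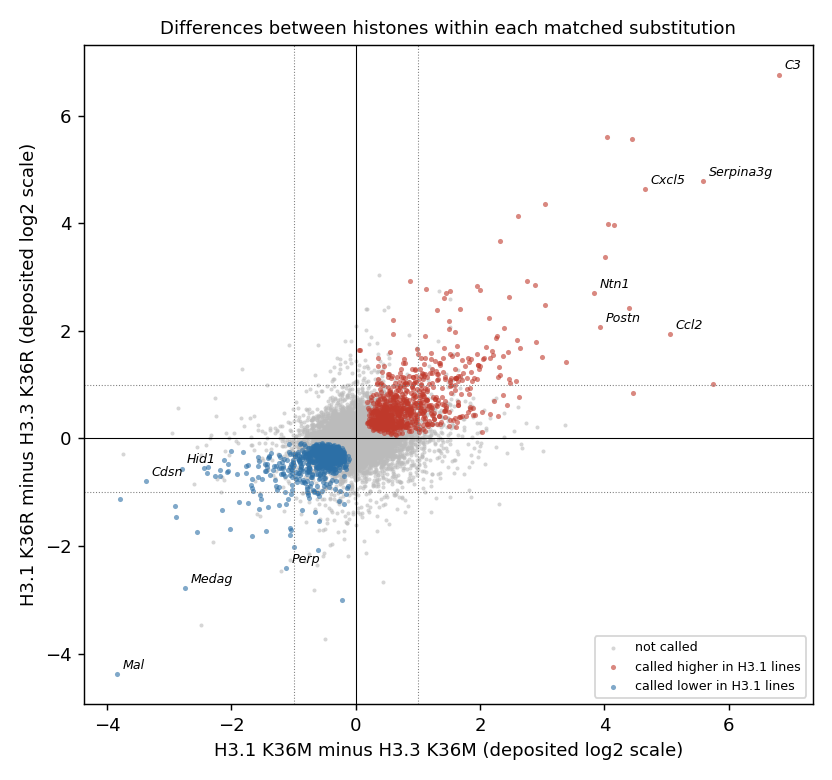
Difference between H3.1 K36M and H3.3 K36M (x axis) against that between H3.1 K36R and H3.3 K36R (y axis) for the genes tested, on the deposited log2 scale. Genes past 1 in both pairs number 138 in the higher corner and 32 in the lower one.

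Whether the difference between the histones itself differed between the inhibitory and the other substitutions was asked with an interaction term. No gene passed (0 of 14215, 0.0%; limma), the lowest adjusted p was 0.181, and 1582 genes had an unadjusted p under 0.05. Each side of that test held 1 H3.1 library. Without the filter on low values 798 genes were called, of which 714 lay under the filter and 84 above it.

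Median differences varied between chromosomes, against a median of 0.00 over all genes tested. Over all genes tested 5.65% were called higher and 5.37% lower. Genes on chromosome 1 had a median difference of 0.16, with 84 higher (11.3%) and 8 lower (1.08%) of 744 tested. The chromosome 1 median was 0.12 and 0.11 in the K36M and K36R pairs. It stayed between 0.13 and 0.21 when any library was left out. Genes on chromosome 15 had a median of -0.17, with 13 higher (2.46%) and 50 lower (9.47%) of 528, yet the matched pairs gave -0.06 and -0.03. Chromosome 9 had a median of 0.13, with 64 higher (8.8%) and 8 lower (1.1%) of 727, and its matched pairs gave 0.23 and -0.05. That median was 0.03 without H3.1 K36M and 0.25 without H3.1 K36R. Chromosome 18 had a median of 0.13, with 20 higher (5.46%) and 4 lower (1.09%) of 366. Its matched pairs gave -0.025 and 0.12, and the median was 0.02 without H3.1 K36R. Chromosome 13 had a median of 0.095, with 31 higher (6.01%) and 8 lower (1.55%) of 516, and matched pairs at -0.051 and 0.038. Chromosome 11 had a median of -0.11, and its matched pairs gave -0.02 and -0.06, with -0.04 in the fit of the K36M and K36R lines alone. Chromosome 14 held 44 higher (10.2%) and 8 lower (1.86%) genes of 431, with a median of 0.06 (0.10 without H3.1 K36R). The labels give no karyotype, and the part of copy number in any result above was not tested.

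**Figure D5:**
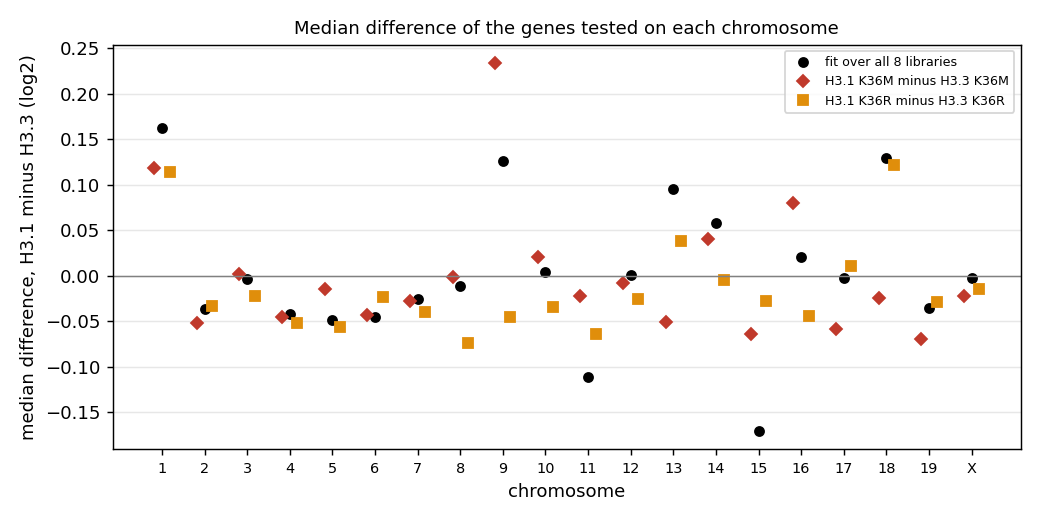
Median difference between the histones over the tested genes of each chromosome (deposited log2 scale), with the matched K36M and K36R pairs beside it. Chromosome 1 lies above 0 in the fit and in both pairs, at 0.16, 0.12 and 0.11, while chromosome 15 is lowest in the fit at -0.17.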

How the data were processed

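RNA-seq libraries of total RNA from 8 cell lines were compared, 2 with an H3.1 transgene and 6 with an H3.3 transgene. The deposited table holds log2 values made by the authors with DESeq2's variance-stabilising transformation, per the file's values and the submitters' processing notes. Those notes also name Trimmomatic 0.32, STAR 2.3.0e, featureCounts 1.4.4 and build mm10. Their order and settings, the annotation, strand use and the treatment of multiply matching reads were not given in the sources used for this text. The transformation was inverted to whole reads for every value within 0.001 reads, which gave 45448249 to 68020958 reads per library. Intervals and floors from such reads cover counting error only.

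Genes with a mean at least 1 above the lowest value (5.9526) were kept, which left out 17061 genes. The fit was limma 3.58.1 in R 4.3.3 on the deposited values, with terms for histone and for K36M or K36I against all others, an intensity trend, and two-sided p-values with Benjamini-Hochberg adjustment over 14215 genes. A second fit added the interaction. Alternatives were another filter or none, no covariate, matched substitutions, equal medians, array weights, no trend, robust variances, voom, log2 of normalised reads plus 1 and each library left out in turn; thinned reads and the omission of H3.3 K36A with H3.3 K36L were chosen after seeing the data. On simulated counts the first fit recovered 75% of genes planted at a log2 change of 1 and 95% of those at 2. Of 14015 unchanged genes 4 were called. Changes were planted only in genes well above the filter level, so recovery near the filter was not simulated. Counts were drawn separately for each gene, so shifts that a line shares across genes are not covered by these values.

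The genes named first were the 15 with the largest difference each way among called genes whose groups did not overlap, up to 4 called members of each list by size of difference (2 where none was called), and the H3.3 genes. Relb, Nfkb2, Nfkbie, Ifit1, Fdps, Hp, Cxcl16, Il6st, Mavs, Asns, Hmgcs1, Srebf1 and Srebf2 were chosen after their values were seen. The libraries compared and the gene lists were chosen with earlier results of these data known. Coordinates and promoters come from RefSeq on GRCm38.p6, with coordinates for 13021 of the genes tested (91.6%). Exons of 50 of the 154 genes the rule names overlap another gene, 40 of them on the opposite strand. Some genes of the lists count towards the totals and are not reported here by name.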

Additional observations from a re-analysis of the deposited data

Results flagged for a closer look

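In 5 genes that the naming rule covers or the marker lists hold, 1 H3.3 library lay far from the other 5. The naming rule alone covers 154 genes, and chance alone sets about 1 in 20 such groups apart. Ccl7 had 1827.3 normalised reads in H3.3 K36I, against 274.2 to 506.6 in the other H3.3 lines. Itga3 had 217.5 in H3.3 K36R, against 611.7 to 986.0. Lamc1, a laminin chain called at 0.39 between the histones, had 13715.8 in H3.3 K36M, against 16112.4 to 16611.9. Tead3, a transcription factor of the Hippo pathway called at 0.45, had 444.4 in H3.3 K36R, against 350.8 to 371.2. Pdgfrb, a platelet-derived growth factor receptor that was not called, had 22313.2 in H3.3 K36R, against 13388.5 to 14641.3.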

How the results depend on the processing

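The fit described above called 1567 genes, 803 higher and 764 lower in the H3.1 lines. Without the term for K36M or K36I it called 432 (245 higher, 187 lower), with the K36M and K36R lines alone 12 (10 and 2), with array weights 414 (250 and 164), and without H3.3 K36A and H3.3 K36L 394 (266 and 128). Voom on the recovered reads called 449 lower genes. With each library left out, the calls ranged from 183 to 1934, the higher ones from 131 to 1019 and the lower ones from 52 to 915. The other settings stayed within 1.5 times those counts. Every called gene named kept its direction. Without the filter the interaction called 798 genes. Some uncalled genes changed sign when a library was left out: Prdm9 ranged from -0.769 to 0.058 (without H3.1 K36M), Tsix from -0.001 (without H3.1 K36M) to 0.304, Rhox5 from -1.116 to 0.102 (without H3.1 K36M), Sycp1 from -0.081 (without H3.1 K36R) to 0.131, Vwf from -0.687 to 0.271 (without H3.1 K36R) and Eng from -0.465 to 0.228 (without H3.1 K36R). Sycp1 was also at -0.007 without H3.3 K36A, and at -0.022 without H3.3 K36A and H3.3 K36L. The causes were not tested. No paired analysis was possible because the labels carry no replicate numbers, other than by substitution, which is the fit of the K36M and K36R lines alone. The H3.1 libraries were the shallowest; with all libraries thinned to the depth of the smallest, 1504 genes were called.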
